A study of Mus musculus with 4 samples.

Results

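The WAVE regulatory complex was represented by 10 genes for subunits and paralogs, chosen by symbol from the annotation of the array. These were Nckap1l and Nckap1, Cyfip2, the WAVE proteins Wasf1, Wasf2 and Wasf3, the Abi adaptors Abi1, Abi2 and Abi3, and Brk1. These are not every gene of the complex, and the paralog of Cyfip2 was not analysed here. Each of the 10 was measured by 1 probe set, among 19505 genes tested. RNA came from Hem1 KO macrophages, grown from the marrow of 2 distinct mice that lack Hem1, and from WT macrophages grown from 2 distinct mice, with 1 array per mouse. Both genotypes had the same culture of 8 days, in RPMI to which 10% fetal calf serum and 20% L929 conditioned medium were added, since L929 cells secrete CSF1, on which macrophages grow. The sources used here give neither strain nor age, nor the part of Nckap1l that was removed, nor whether other tissues of the mice also lost it.

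The WAVE complex joins Rac signalling to actin assembly. It holds 5 kinds of subunit, a Hem protein, a Cyfip protein, a WAVE protein, an Abi protein and Brk1, and it is kept inactive until Rac, a small GTPase, and membrane lipids bind it. It then exposes the tail of the WAVE protein, which turns on the Arp2/3 complex and so builds the branched actin of lamellipodia. Hem1, encoded by Nckap1l, is the Hem protein of blood cells, and its paralog Nap1, encoded by Nckap1, serves most other cells. Loss of 1 subunit often destabilises the others as proteins, which an array of RNA does not measure.

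Values are log2 expression as deposited, and differences are Hem1 KO minus WT with the standard error (SE) of limma and n = 2 arrays per genotype. The threshold for a call was an adjusted p of 0.05 over all 19505 genes. It was passed by 1.61% of all genes, 1.48% higher in Hem1 KO macrophages and 0.133% lower. Of the 10 WAVE complex genes, 0 were called higher and 1, Nckap1l, was called lower. At an unadjusted p under 0.05, limma gave 1 member higher (Nckap1) and 2 lower (Nckap1l and Cyfip2), beside 3.63% and 1.57% of all genes. The other 7 members had differences between -0.24 and 0.27. With 2 arrays in each genotype, the smallest two-sided p of an exact permutation test is 0.333.

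Between the arrays, several properties touched these genes. A gene counted as above background when it exceeded the 95th percentile of 1448 chemosensory receptor genes, most of them silent outside sensory tissue, on that array, a level of 5.38 to 6.04. Median levels over genes were 6.95 and 6.49 on the Hem1 KO arrays and 6.82 and 6.42 on the WT arrays (replicates 1 and 2), and Hem1 KO replicate 1 had the narrowest spread of values (SD 2.00, against 2.15 on each of the other arrays). On the deposited scale, bright genes tended to lie lower on the Hem1 KO arrays, with a median difference of -0.11 over the 6106 genes with a mean level of 8 or more. This depended on the scaling. For mean levels of 8 to 10, 10 to 12 and 12 or more, the medians were -0.09, -0.14 and -0.14 as deposited. They were -0.05, -0.01 and 0.01 after quantile normalization, and -0.19, -0.24 and -0.24 after centring of the arrays on their medians. All 8 measured macrophage markers were above background on every array, and 8 of 8 had a difference under 0, with a median of -0.34. That median was -0.22 after quantile normalization and -0.44 after centring. Cell number and RNA per cell cannot be told apart in such bulk samples.

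**Figure D1:**
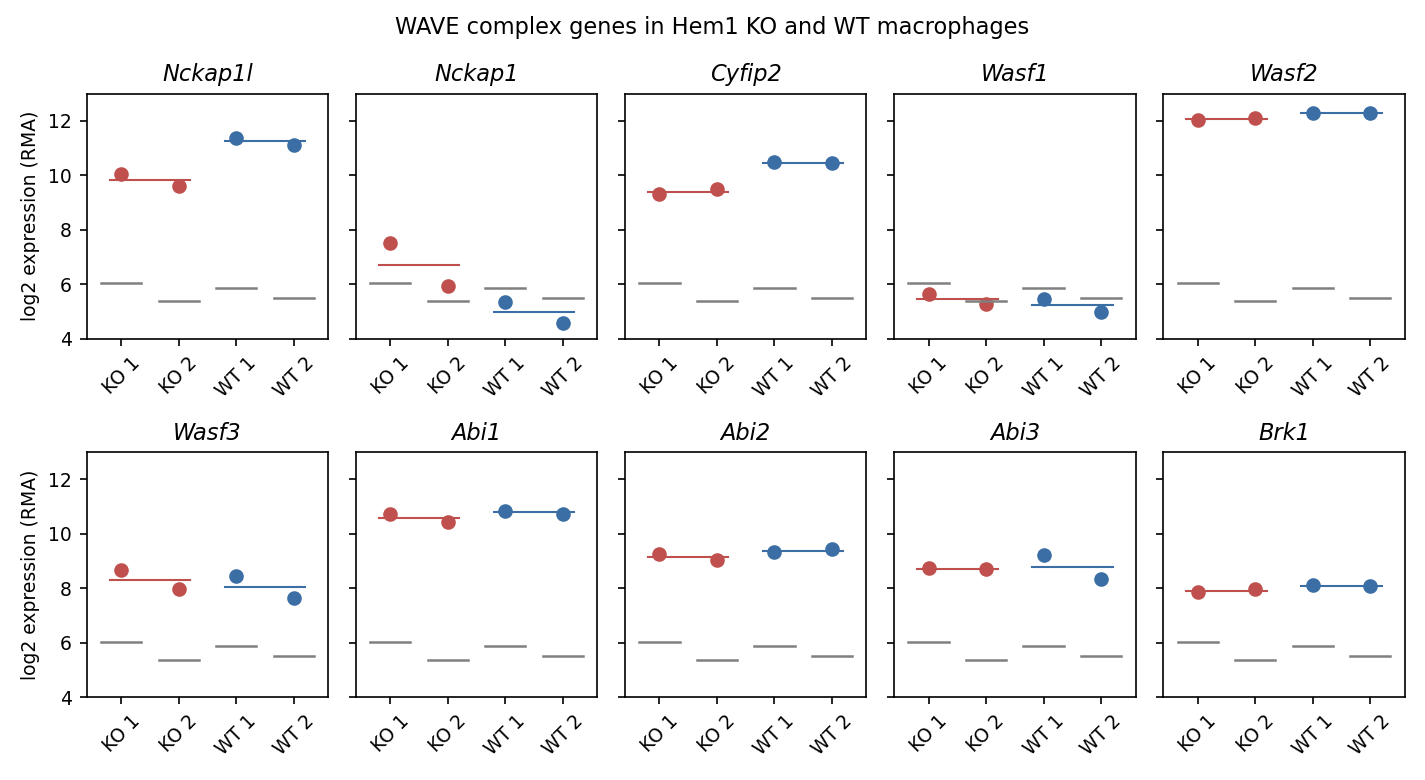
Log2 expression of the 10 WAVE complex genes on each array, with Hem1 KO arrays in red to the left of WT arrays in blue, coloured lines at the mean of each genotype and grey marks at the background of each array. Nckap1l and Cyfip2 sat about 1 unit or more lower on both Hem1 KO arrays, Nckap1 lay above background only on the Hem1 KO arrays, and Wasf1 lay under background throughout.

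The Hem subunit showed opposite differences in its paralogs. Nckap1l read 10.04 and 9.62 on the Hem1 KO arrays, against 11.37 and 11.11 on the WT arrays. The genotypes did not overlap, and the lowest Nckap1l value, on Hem1 KO replicate 2, was still far above the background of 5.38 on that array. Nckap1l was 2.66-fold lower in Hem1 KO macrophages (difference -1.41, SE 0.32, 95% interval -2.11 to -0.71, limma adjusted p = 0.0467). Its probes may lie outside the removed part of the gene, so this value does not measure how much functional Hem1 RNA remained. The call was lost when Hem1 KO replicate 2 was left out (-1.20, adjusted p = 0.0874), and likewise for WT replicate 1 (-1.28, 0.381) and WT replicate 2 (-1.54, 0.128). It was also lost when only genes above background on 2 or more arrays were tested (adjusted p = 0.0868) or when controls and unnamed probe sets were added (adjusted p = 0.121). The limma call was kept after centring of the arrays on their medians (adjusted p = 0.00343) and after quantile normalization (0.0264). It was also kept with a prior that follows intensity (6.61e-10) and with the replicate number as a block (5.49e-04).

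Nckap1, the widely expressed Hem gene, read 7.50 and 5.92 on the Hem1 KO arrays, against 5.35 and 4.59 on the WT arrays. Both Hem1 KO values were above background, the second one narrowly, and neither WT value was. The difference of the means was at least 2.02-fold when WT was set at background. Such a bound, here and below, allows for the background of the WT arrays only, and not for the spread of the Hem1 KO arrays. As measured, the difference was 1.74 on the log2 scale (SE 0.46, 95% interval 0.75 to 2.73). It did not pass over all genes (limma adjusted p = 0.112). With background at the 99th percentile in place of the 95th, Nckap1 was above it on 1 of 4 arrays, Hem1 KO replicate 1. That array weighed heavily: without it the difference was 0.95 (adjusted p = 0.469), and without Hem1 KO replicate 2 it was 2.53 (adjusted p = 7.03e-08). Fits that left out a Hem1 KO array gave every gene the same SE of 0.40, and those that left out a WT array 0.50, so their p-values do not reflect the spread of Nckap1 itself. Nckap1 also passed without WT replicate 1 (2.12, adjusted p = 0.00201), and, over all arrays, after centring of the arrays on their medians (1.64, adjusted p = 0.0266) with a prior that follows intensity (adjusted p = 0.00769) and with the replicate number as a block (adjusted p = 1.93e-04).

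Markers of stromal cells, in which Nckap1 is the usual Hem gene, were as a list also higher in Hem1 KO macrophages. The list was chosen with earlier results of these data known. Of 9 measured stromal markers, 6 were called higher and 0 lower, beside 1.48% and 0.133% of all genes. Their median difference was 1.94, against 0.01 over all genes. Their summed linear signal was 10848 and 8280 on the Hem1 KO arrays, against 3012 and 2201 on the WT arrays. Acta2, the brightest of them, weighed most in each sum (log2 values of 12.32 and 12.11 on the Hem1 KO arrays, 10.72 and 10.20 on the WT arrays). Lum and Thy1 were the stromal markers below background on all arrays. The stromal median was 1.54 without Hem1 KO replicate 1 and 2.33 without Hem1 KO replicate 2, against 0.95 and 2.53 for Nckap1. The part of stromal RNA in the Nckap1 signal was not tested.

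The change of Nckap1 exceeded that of Nckap1l by at least 2.43 on the log2 scale, with Nckap1 set at background on the WT arrays, where it was not detected (exact permutation two-sided p = 0.333, the smallest that 2 against 2 allows). The value as measured, 3.15, rests on those WT signals below background. Both are differences between changes, since the levels of separate probe sets were not compared, and Nckap1l is itself the targeted gene.

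**Figure D2:**
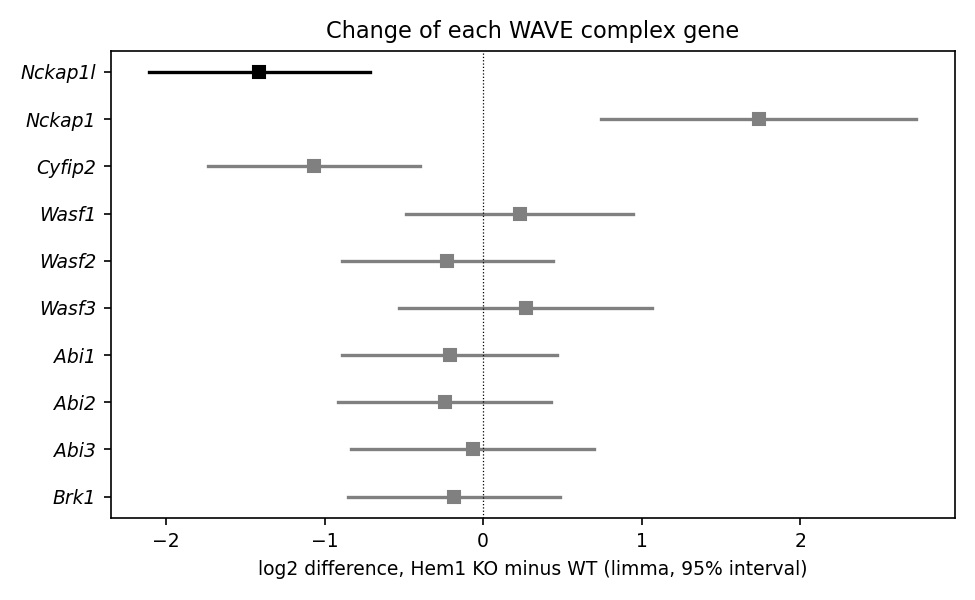
Log2 difference (Hem1 KO minus WT) of each WAVE complex gene with its 95% limma interval, black where the adjusted p was under 0.05 and grey otherwise. Nckap1l (-1.41) was the called member, the intervals of Nckap1 (1.74) and Cyfip2 (-1.07) also left out 0, and the other 7 intervals spanned it.

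Cyfip2 had the lowest difference after Nckap1l. Cyfip proteins carry the Rac binding sites of the complex and pair with the Hem subunit, and Cyfip2 is the form enriched in brain and blood cells. The stretch of 250 bases upstream of its start is shown, as RefSeq gives it (GRCm38.p6), because Cyfip2 is the 1 gene of the 3 with larger differences that the promoter table holds. That of Wasf2, a member with a small difference, is set beside it. Capitals mark GC boxes (GGGCGG) and CCAAT boxes (CCAAT) on either strand, and both stretches are written 5′ to 3′ in the direction of the gene.
Cyfip2, chr11:46312359-46312608, minus strand: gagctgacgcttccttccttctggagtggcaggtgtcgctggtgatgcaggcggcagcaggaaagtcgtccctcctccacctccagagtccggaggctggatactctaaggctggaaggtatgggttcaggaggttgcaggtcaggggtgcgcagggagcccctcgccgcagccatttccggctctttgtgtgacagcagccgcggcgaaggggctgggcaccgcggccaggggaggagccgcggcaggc
Wasf2, chr4:133130383-133130632, plus strand: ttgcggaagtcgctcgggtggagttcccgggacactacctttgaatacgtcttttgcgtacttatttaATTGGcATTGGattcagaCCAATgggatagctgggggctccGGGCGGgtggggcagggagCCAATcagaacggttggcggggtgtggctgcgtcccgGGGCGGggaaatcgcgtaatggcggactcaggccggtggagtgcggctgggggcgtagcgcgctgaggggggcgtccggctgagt
The Cyfip2 stretch held neither motif and was 66.4% G and C. The Wasf2 stretch held 2 GC boxes and 4 CCAAT boxes and was 63.2% G and C. The stretches of Wasf3 and Brk1, also members with small differences, held neither motif, so this lack was not particular to Cyfip2. Wasf1 had 1 of each motif, and Abi1 had a CCAAT box but no GC box. Over 32851 stretches of the same length in the table, 32.7% held a GC box and 33.8% a CCAAT box, and the median content of G and C was 52.4%. The table matched 6 of the 10 members, Cyfip2, Wasf1, Wasf2, Wasf3, Abi1 and Brk1.

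Cyfip2 read 9.32 and 9.48 on the Hem1 KO arrays, against 10.47 and 10.46 on the WT arrays. On the deposited scale the arrays of a genotype lay much closer to each other than to those of the other genotype. After centring they were less close (9.04 and 9.66 on the Hem1 KO arrays, 10.32 and 10.71 on the WT arrays). The genotypes did not overlap on either scale, nor after quantile normalization. The difference was -1.07 (SE 0.31, 95% interval -1.74 to -0.40), a 2.10-fold lower value, and missed the threshold over all genes (limma adjusted p = 0.182). On the deposited scale it was the steadiest of the 3 larger differences, at -0.99 to -1.15 when any 1 array was left out. It was -0.96 after quantile normalization (adjusted p = 0.0872) and -1.17 after centring (adjusted p = 0.0573). Cyfip2 passed when the prior followed intensity (adjusted p = 2.54e-04), with the replicate number as a block (0.00682) and with that block on centred arrays (0.00105), though the labels do not say what the replicate numbers share. In simulated arrays of this size, a change of 1 on the log2 scale was called in a median of 0% of 200 changed genes and a change of 2 in 89.0%. The simulation drew independent noise for each gene, without the offsets between arrays seen here, so it gives no rate for Cyfip2 itself. Only 0.436% of all genes had a lower difference than Cyfip2, and 0.169% a lower one than Nckap1l.

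**Figure D3:**
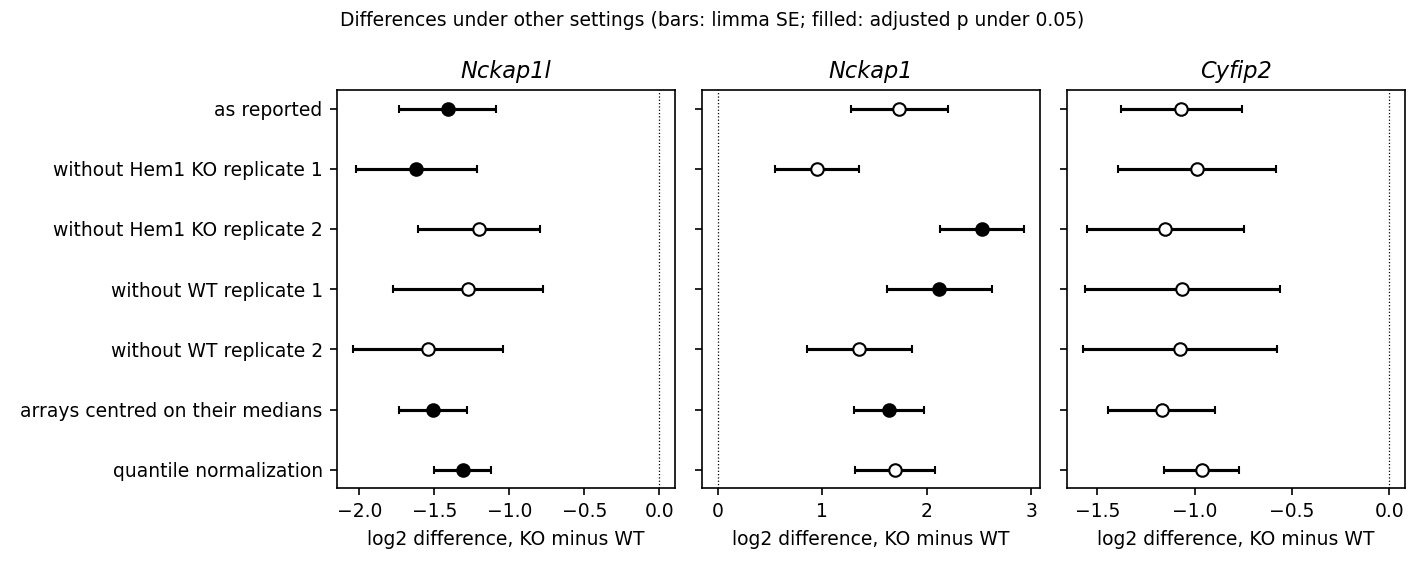
Log2 difference (Hem1 KO minus WT) of Nckap1l, Nckap1 and Cyfip2 with all arrays, with each array left out and after 2 other scalings, with bars of 1 limma SE and filled points where the adjusted p was under 0.05. The value of Nckap1 ran from 0.95 to 2.53, while that of Cyfip2 stayed between -0.96 and -1.17.

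The genes of the WAVE proteins, which bind Arp2/3, had smaller differences than Nckap1l, and none was called. Wasf2 encodes WAVE2, the main form in macrophages, and read 12.03 and 12.08 on the Hem1 KO arrays, against 12.29 and 12.27 on the WT arrays. Its difference was -0.23 (SE 0.31, 95% interval -0.89 to 0.44), which leaves out a fall as large as 2-fold. The Wasf2 values of the genotypes did not overlap on the deposited scale, but did after centring or quantile normalization.

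Wasf3 encodes WAVE3, a form known mainly from brain. It read 8.66 and 7.97 on the Hem1 KO arrays, against 8.44 and 7.66 on the WT arrays. Replicate 1 was the brighter array in both genotypes, the genotypes overlapped, and the difference of 0.27 (SE 0.37, 95% interval -0.53 to 1.06) turned to -0.08 with Hem1 KO replicate 1 left out and to -0.12 with WT replicate 2 left out. Wasf1, which encodes the neuronal form WAVE1, read 5.65 and 5.27 on the Hem1 KO arrays, against 5.48 and 4.99 on the WT arrays. All 4 values were below background, so that no change of Wasf1 could be measured here.

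The Abi adaptors, which hold the complex together and bind signalling proteins through an SH3 domain, also had small differences and no called gene. Abi1, the widely expressed form, read 10.72 and 10.43 on the Hem1 KO arrays, against 10.85 and 10.73 on the WT arrays (difference -0.21, SE 0.31, 95% interval -0.89 to 0.47). Abi2 read 9.25 and 9.03 on the Hem1 KO arrays, against 9.33 and 9.43 on the WT arrays (-0.24, SE 0.31, 95% interval -0.92 to 0.43). For both genes the Hem1 KO values lay just under the WT values without overlap. Abi3, the form known from myeloid cells and microglia, read 8.73 and 8.69 on the Hem1 KO arrays, against 9.23 and 8.33 on the WT arrays. The WT arrays of Abi3 spanned both Hem1 KO arrays, and the difference of -0.07 (SE 0.35, 95% interval -0.83 to 0.70) became 0.38 with WT replicate 1 left out and -0.51 with WT replicate 2 left out.

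Brk1, the smallest subunit and one with no paralog among these genes, read 7.87 and 7.96 on the Hem1 KO arrays, against 8.11 and 8.09 on the WT arrays. The genotypes did not overlap, and the difference was -0.18 (SE 0.31, 95% interval -0.85 to 0.48).

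Of the 10 members, 6 lay lower on both Hem1 KO arrays than on either WT array, and 1, Nckap1, lay higher. Over all genes, 13.3% were lower without overlap and 12.5% were higher. The share depended on brightness: among the 6106 genes with a mean level of 8 or more, which hold 8 of the members and all 6 lower ones, 29.1% were lower without overlap. It also depended on the scaling, an alternative chosen after seeing the data. After centring, 3 members were lower without overlap (Nckap1l, Cyfip2 and Abi1), beside 24.7% of all genes, and after quantile normalization 2 were (Nckap1l and Cyfip2), beside 21.9%. The median difference of the 10 members was -0.20, against 0.01 over all genes, and it was -0.30 after centring, which moved the median of all genes to -0.09, and -0.09 after quantile normalization.

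**Figure D4:**
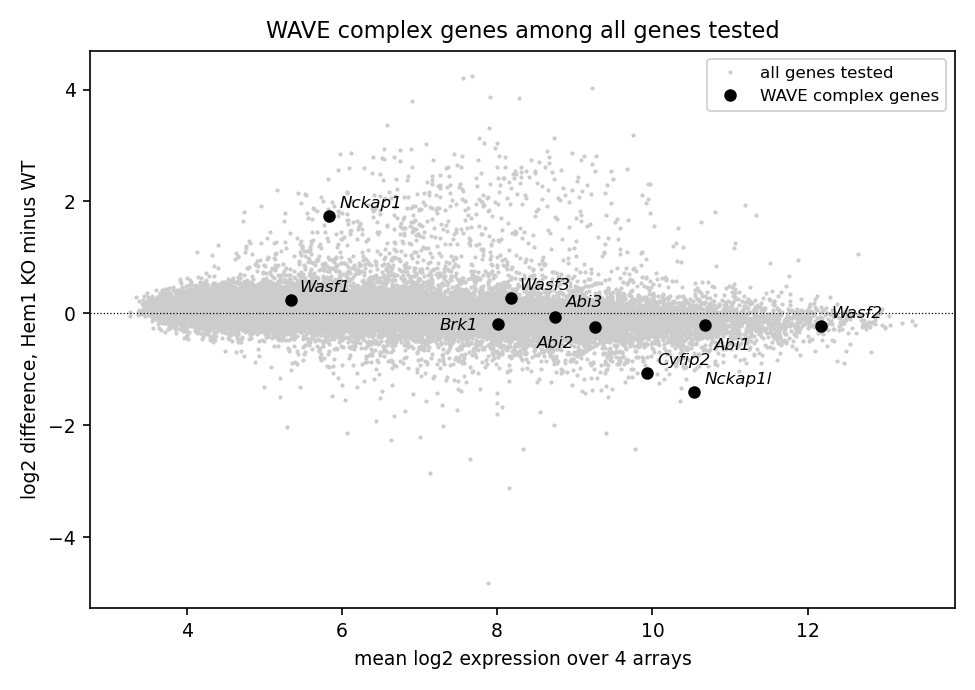
Log2 difference (Hem1 KO minus WT) against mean log2 expression over the 4 arrays, for all 19505 genes in grey and the 10 WAVE complex genes in black. Nckap1l and Cyfip2 sat at the lower edge of the cloud at their level and Nckap1 near the upper edge at its level, while Wasf2, Abi1, Abi2, Abi3, Brk1, Wasf1 and Wasf3 lay within it.

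Regulators and partners of the complex were not called. The 20 measured genes encode proteins that bind or activate the complex or its subunits, such as Rac and Arf GTPases, Nck adaptors and Abl kinases. Limma called 0 of them, and 0 reached 0.05 before adjustment. Their median difference was -0.19, and they ran from -0.62 to 0.32. Those with the smallest p were Baiap2, which encodes IRSp53, a membrane-curving partner that links Rac to WAVE2 (7.83 and 7.18 on the Hem1 KO arrays, 8.42 and 7.84 on the WT arrays, difference -0.62, SE 0.35), and the GTPase gene Rac3 (-0.34, SE 0.31). Of 7 measured core subunits of Arp2/3, 0 were called and 0 had an unadjusted p under 0.05 by limma (median -0.12). Arpc5 (-0.32) and Actr3 (-0.20) had the smallest p. Among 9 other activators of Arp2/3, Cttn, which encodes the branch-stabilising protein cortactin, was higher (1.63, SE 0.35, limma adjusted p = 0.0314) and 0 were lower (median -0.14). Hem1 is also known to act on mTORC2, a kinase complex, and of 6 measured mTORC2 genes 0 passed in limma, 0 of them even without adjustment (median 0.12). Mapkap1 and Mtor had the smallest p, each at -0.35.

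The Hem pair was set beside 10 other pairs of a hematopoietic cytoskeletal gene and a widely expressed counterpart. Nckap1l was the 1 gene called among the hematopoietic genes, but it is the targeted gene and the others are not. The hematopoietic genes of the other pairs ran from -0.59 to 0.30, 9 of 10 lay under 0, and 0 were called. Dock2, a Rac activator of leukocytes, had the lowest difference (10.53 and 10.70 on the Hem1 KO arrays, 11.36 and 11.03 on the WT arrays, difference -0.59, SE 0.32).

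Among the widely expressed counterparts, 3 of 10 were called higher and 0 lower, beside 1.48% and 0.133% of all genes. These were Parva, an integrin-linked adaptor (2.41, SE 0.35, limma adjusted p = 0.00259), Fermt2, which encodes the integrin activator kindlin-2 (2.01, SE 0.35, adjusted p = 0.00794), and Cttn. Their hematopoietic partners Parvg (0.30), Fermt3 (-0.20) and Hcls1 (-0.42) were not called. Across the 10 pairs the change of the counterpart minus that of the hematopoietic gene ran from -0.19 to 2.21, with a median of 0.45. The Hem pair had at least 2.43, but that value includes the fall of the targeted gene, so it is not on equal terms with them. Nckap1 alone, at 1.74 as measured, lay within the range of the counterparts (-0.25 to 2.41). All 10 counterparts were above background on every array, unlike Nckap1. The pairs are not independent of each other and were chosen with earlier results of these data known. Of 9 stromal markers, 6 were called higher beside Parva, Fermt2 and Cttn.

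**Figure D5:**
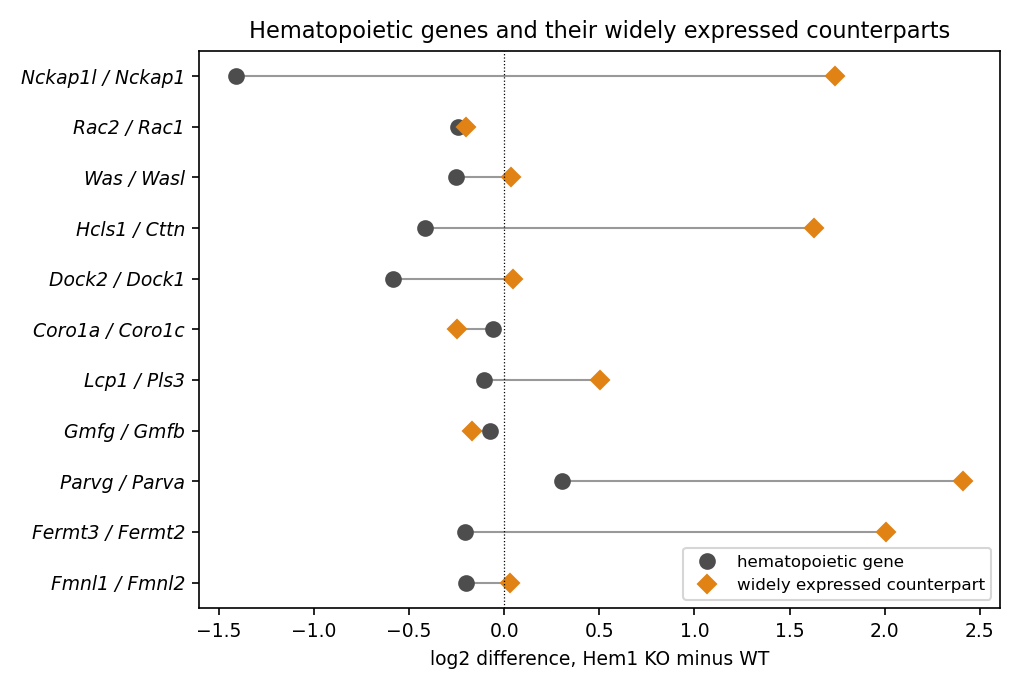
Log2 difference (Hem1 KO minus WT) of 11 hematopoietic cytoskeletal genes (grey circles) and of their widely expressed counterparts (orange diamonds), joined by pair. Nckap1l (-1.41), the targeted gene, lay to the left of the other grey circles, which ran from -0.59 to 0.30. Nckap1 (1.74) lay near Parva (2.41), Fermt2 (2.01) and Cttn (1.63).

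The genes with array profiles most like those of the Hem paralogs were sought among 13106 genes above background on at least 1 array. Likeness was the Euclidean distance between the 4 values after each gene was centred on its own mean. Nearest to Nckap1l were Stac2 (distance 0.16), Stap1 (0.26), Abcg1 (0.27), Vwf (0.27) and Zfyve28 (0.28). Their differences ran from -1.52 for Vwf to -1.17 for Stap1, and Vwf was called (limma adjusted p = 0.0227). Vwf was above background on only 1 of the 2 Hem1 KO arrays. Nearest to Nckap1 were Thsd7a (distance 0.19), Klhdc8a (0.22), Ebf1 (0.23), Bcat1 (0.24) and Arhgap29 (0.28), all higher in Hem1 KO macrophages. Klhdc8a (at least 2.55-fold) and Arhgap29 (at least 2.30-fold) were, like Nckap1, below background on both WT arrays, so their distances rest in part on background, and Klhdc8a was called (limma adjusted p = 0.0443). Thsd7a (1.62), Ebf1 (1.76) and Bcat1 (1.76) were above background on all arrays. The other named neighbours were not called. With 4 arrays, these profiles hold little more than the genotype difference and the offset between replicates. The direction and approximate size of the neighbours' differences therefore follow from how the neighbours were chosen.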

How the data were processed

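RNA of 4 macrophage cultures was measured on 1 Affymetrix array each, after labelling by the GeneChip Pico kit, per the labels' protocols. The authors deposited log2 values, and the submitters' processing notes name RMA and give no version. That the scale is log2 follows from the range of the values (2.70 to 14.0). Array medians differed, so no quantile step across these arrays is visible.

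Of 29129 probe sets and controls, 19572 name 1 gene, 0 name several, and the rest none in the platform annotation. For 55 genes with several probe sets the brightest was kept, which left 19505 genes. Limma 3.58.1 in R 4.3.3 (lmFit, eBayes, no trend, 11.2 prior degrees of freedom) fitted genotype, two-sided, with Benjamini-Hochberg adjustment over all genes. On simulated arrays of these 19505 genes with 200 changed by 1 or by 2 (10 runs each), it recovered a median of 0% and 89.0% (6.35% of calls false at the larger size).

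The members, gene lists, pairs, background rule and alternatives were chosen with earlier results of these data known. Named are all members, called list genes, the 2 lowest p-values of a list without calls, and the 5 nearest profiles without predicted, small RNA or receptor genes. Other genes were named after their values were seen. Alternatives left out arrays, used the replicate number as a block, rescaled arrays, filtered dim genes, changed the prior or changed the features tested. Coordinates are those of the RefSeq promoter table, while the sources used here name no build for the array design. The number of arrays limits the precision.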

Additional observations from a re-analysis of the deposited data

How the results depend on the processing

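The direction of Nckap1l, Nckap1 and Cyfip2 held in all 12 alternatives, and that of Wasf2, Abi1, Abi2 and Brk1 too. Only leaving out an array, centring and quantile normalization could alter a direction. The block, prior, filter and feature changes by themselves leave the difference of a member unchanged. When an array was left out, 2 measured members changed sign. Abi3 then ran from -0.51 to 0.38 (0.38 without WT replicate 1) and Wasf3 from -0.12 to 0.66 (-0.12 without WT replicate 2, and -0.079 with Hem1 KO replicate 1 left out). Each changed value was smaller than its own SE. The signal of Wasf1, below background on all arrays, ran from -0.014 (without WT replicate 2) to 0.47, which is no measure of the gene. Nckap1l lost its call in 3 of the 4 fits that left out an array (-1.62 to -1.20 over the 4) and at -1.41 when dim genes were filtered out or when all probe sets and controls were tested. In the dim gene filter Wasf1 was not tested. The cause of the lost calls was not tested. Where 1 array was left out, limma gave every gene 1 common spread (an SE of 0.40 without a Hem1 KO array and 0.50 without a WT array), so calls kept or gained there are weak evidence.

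Leaving out 1 array gave 0 to 1 members called higher, 0 to 1 called lower, 185 to 545 genes called higher and 26 to 101 called lower. A member, Nckap1, was called higher (1) after centring and with a prior following intensity. Members called lower were 2, Nckap1l and Cyfip2, with the prior following intensity, and 0 with the dim gene filter or with all probe sets and controls. Genes called higher fell to 174 with the dim gene filter. Genes called lower numbered 70 after centring, 16 after quantile normalization, 8 with the dim gene filter and 205 with the prior following intensity, against 26 in the fit as reported.

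The labels do not say what the replicate numbers share, and the pairing was checked from the data alone, where the deviations of same-numbered arrays correlated at 0.24 across genes. With the replicate block, 1 member was called higher (Nckap1, adjusted p = 1.93e-04), 2 lower (Nckap1l and Cyfip2, adjusted p = 0.00682 for Cyfip2), and 620 genes were higher and 199 lower. With the replicate block on centred arrays, added after seeing the data, these counts were 1, 2, 597 and 413, with Nckap1l at -1.51.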

Other observations

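Markers of other cell types varied in brightness. Most T and NK cell, neutrophil, basophil and mast cell, and dendritic cell markers lay below background on all arrays. Each measured erythroid and megakaryocyte marker was above it on at least 1 array, and the megakaryocyte marker Pf4 was bright (12.39 to 12.70). Of 6 endothelial markers, Cdh5 was called higher in Hem1 KO macrophages (6.25 and 6.93 on the Hem1 KO arrays, against 4.78 and 4.17 on the WT arrays, which were below background). Vwf was called lower (5.83 and 5.63 on the Hem1 KO arrays, only the second above background, against 7.25 and 7.25 on the WT arrays). The list median was 0.07. Of 6 basophil and mast cell markers, the basophil protease gene Mcpt8 was called higher (4.24). Its WT values were 5.89 and 5.22, only the first above background and narrowly so, against 10.07 and 9.52 on the Hem1 KO arrays. Fcer1a, Ms4a2, Cpa3 and Gata2 lay below background on all arrays, and the list median was -0.04. The 6 neural markers, of interest because WAVE1 and WAVE3 are best known from brain, had 0 called by limma and 1 at an unadjusted p under 0.05, Tubb3 (0.88), with a median of 0.11. Limma called 0 of 4 B cell, 6 T and NK cell, 7 neutrophil, 3 erythroid, 4 megakaryocyte and 4 dendritic cell markers, with 0 at an unadjusted p under 0.05 in each, and medians of -0.48, 0.07, -0.01, -0.12, 0.06 and 0.05 in that order. Of the 8 macrophage markers, 0 were called and Fcgr1 (-0.74) had an unadjusted p under 0.05.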
